A study of Mus musculus with 6 samples.

Results

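The 9 genes Mmp2, Mmp3, Mmp7, Mmp9, Mmp10, Mmp11, Mmp12, Mmp13 and Mmp14 were described in mouse bladder. They were all probe sets whose array annotation gave exactly 1 of these symbols, which found 13 of 45101 probe sets and all 9 genes among 18193 measured. Where a gene had several probe sets, the brightest on average was read.

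Matrix metalloproteinases (MMPs) are zinc-dependent proteinases, secreted or membrane-bound, that cut collagens, laminins, elastin and other proteins around cells. Most are made as inactive zymogens whose propeptide must be removed, and the tissue inhibitors of metalloproteinases (TIMPs) block the active enzymes. In epithelial cancers some are made by the tumour cells and others by fibroblasts and macrophages nearby, so a level in dissected tissue sums over the cells captured.

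The 6 Affymetrix 3' arrays held laser-captured cells from stained frozen bladder sections of FVB/N mice aged 8 months, in 3 groups of 2. Normal urothelium came from wild-type mice. Carcinoma in situ, a flat high-grade lesion within the epithelium, and invasive carcinoma, which had reached the bladder muscle, both came from mice with the genotype H-ras+/-, p53-/-. Genotype and lesion therefore cannot be told apart against normal urothelium, whereas the lesions shared their genotype. The promoter of the transgene and the way p53 was removed were not given in the sources used here, and no label tied a captured region to an animal, so the p-values rest on array-to-array spread alone, part or all of which may be technical.

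The median log2 signal of an array was 6.07 to 6.14. The arrays of a group were unequally close, with a standard deviation of their log2 difference over genes of 0.22 in carcinoma in situ, 0.42 in invasive carcinoma and 0.69 in normal urothelium. Over 8 urothelial markers the mean log2 level per array was 12.12 to 12.74 in normal urothelium, 10.96 to 11.05 in carcinoma in situ and 10.06 to 10.17 in invasive carcinoma. Within that list the epithelial adhesion genes Cdh1 (12.06 to 12.82) and Epcam (11.97 to 13.14) stayed bright in all arrays, while the uroplakin genes of differentiated urothelium were lower in the lesions. Markers of other cells were read in all groups, normal urothelium included. Over 6 smooth muscle markers the mean was 7.31 to 8.79 in normal urothelium, 6.14 to 6.18 in situ and 8.06 to 9.08 in invasive carcinoma. Over 7 fibroblast markers the mean log2 level per array was 6.24 to 6.81 in normal urothelium, 6.15 to 6.24 in carcinoma in situ and 8.75 to 9.86 in invasive carcinoma. The fibroblast gene Dcn, which encodes decorin, read 11.79 and 11, then 6.32 and 6.50, then 12.08 and 12.59. Over 8 macrophage markers the mean was 7.25 to 7.27, 8.32 to 8.35 and 9.93 to 10.64. Normal array 2 and invasive array 1 carried Xist (13.37 and 10.28) together with the Y-linked gene Kdm5d (7.62 and 6.58). Both in situ arrays carried Xist (13.17 and 13.33) with Kdm5d at 2.90 and 2.84, and normal array 1 and invasive array 2 had low Xist (6.85 and 6.43) with Kdm5d at 8.28 and 5.96. Xist thus differed within normal urothelium and within invasive carcinoma, and Kdm5d was low in the in situ arrays alone. This difference and the lesion cannot be told apart in comparisons with carcinoma in situ. Results without both mixed arrays are given beside the counts. Leaving them out does not remove this limit, because the remaining normal and invasive arrays had low Xist and both in situ arrays high Xist.

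All 9 genes were higher in invasive carcinoma than in normal urothelium and than in carcinoma in situ, and 2 of them, Mmp7 and Mmp13, were already higher in carcinoma in situ. Changes are differences of mean log2 signal ± the standard error of limma's moderated model over all arrays, and adjusted p-values are Benjamini-Hochberg values over 18193 genes, called under 0.05. Levels of different genes were not compared, because probe sets differ in brightness.

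**Figure D1:**
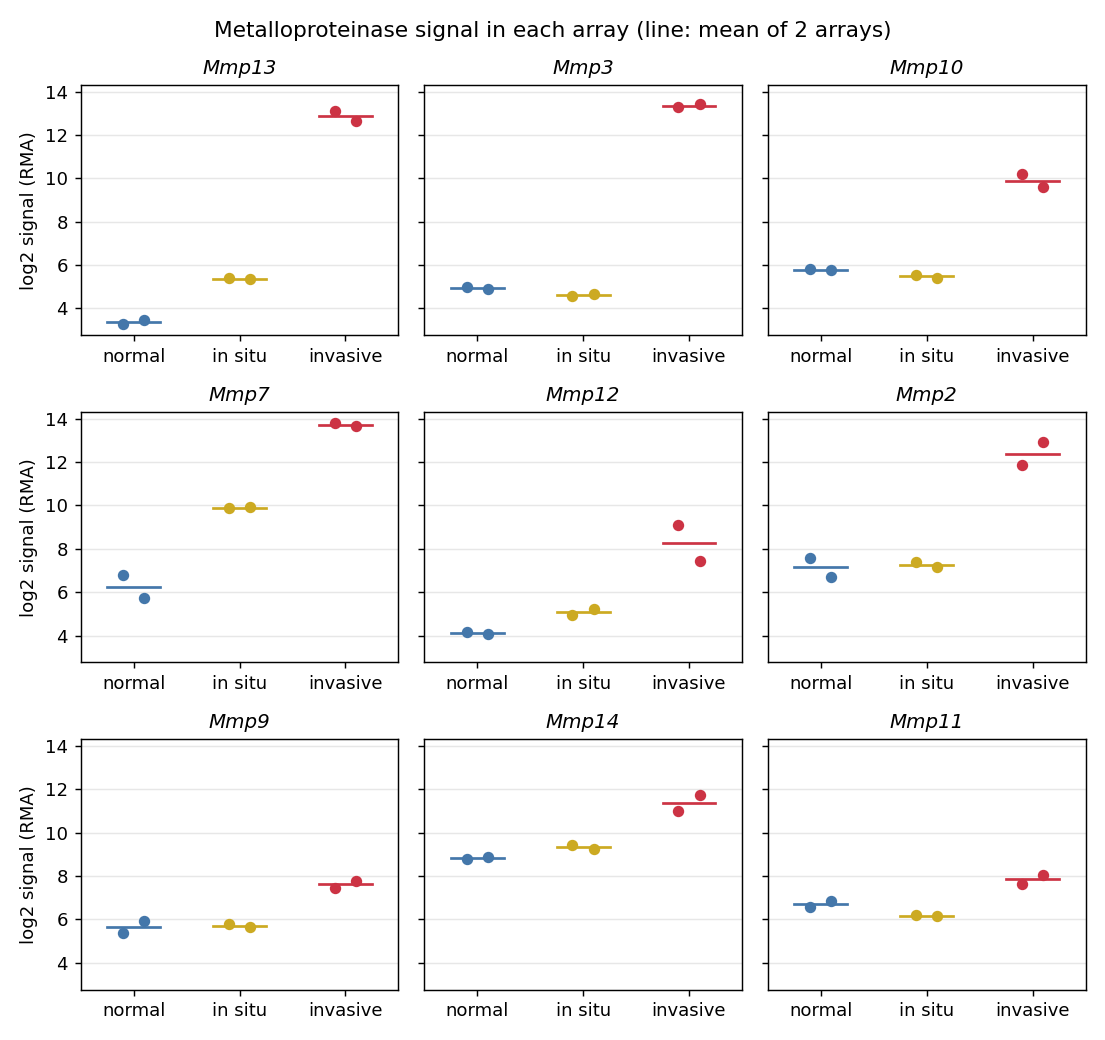
Log2 signal of the 9 genes in each of the 6 arrays, with points for arrays and a line for the mean of the 2 arrays of a group. The invasive arrays lie above all others in every panel, and Mmp7 and Mmp13 also rise from normal urothelium to carcinoma in situ.

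Mmp13, a collagenase that cuts fibrillar collagens, read 3.28 and 3.44 in the normal arrays, 5.39 and 5.36 in the in situ arrays and 13.12 and 12.64 in the invasive arrays. The groups did not overlap and stood in the order normal, in situ, invasive. It rose by 2.02 ± 0.21 in carcinoma in situ (4.04-fold, adjusted p = 0.00793) and by a further 7.50 ± 0.21 in invasive carcinoma (181-fold, adjusted p = 0.000385). Its change between invasive carcinoma and normal urothelium, 9.52 ± 0.21 (733-fold, adjusted p = 0.000108), ranked 1 among 18193 genes by size of rise. The normal values lay under the lower quartile of all probe sets, 4.50 to 4.65, and no detection calls were used here, so this fold rests on a signal near the bottom of the scale.

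Mmp3, stromelysin 1, which degrades many matrix proteins and activates other MMP zymogens, read 4.99 and 4.91 in normal urothelium, 4.55 and 4.68 in carcinoma in situ and 13.30 and 13.41 in invasive carcinoma. It stayed low in the in situ arrays. The difference from normal urothelium there, -0.33 ± 0.16 (95% interval -0.72 to 0.06, adjusted p = 0.276), was not called. From in situ to invasive carcinoma it rose by 8.74 ± 0.16 (427-fold, adjusted p = 9.75e-05), which ranked 1 of 18193 genes in that comparison, with Mmp13 at rank 3.

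Mmp10, stromelysin 2, a close relative of Mmp3, read 5.81 and 5.75 in normal urothelium, 5.56 and 5.38 in carcinoma in situ and 10.19 and 9.59 in invasive carcinoma. Like Mmp3 it was low in both the normal and the in situ arrays. The in situ difference was -0.31 ± 0.24 (adjusted p = 0.508), and the rise from in situ to invasive carcinoma was 4.42 ± 0.24 (21.4-fold, adjusted p = 0.00138). Mmp11, stromelysin 3, which is activated inside the cell and is usually made by stromal fibroblasts of carcinomas, read 6.59 and 6.84, then 6.18 and 6.17, then 7.64 and 8.06. Its in situ arrays were the lowest (-0.54 ± 0.21, unadjusted p = 0.0420, adjusted p = 0.184). The rise from in situ to invasive carcinoma was 1.68 ± 0.21 (3.20-fold, adjusted p = 0.0116) and that from normal urothelium 1.14 ± 0.21 (2.20-fold, adjusted p = 0.0162), the smallest of the 9 in both.

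Mmp7, matrilysin, a small MMP without the hemopexin domain that is typically made by epithelial cells, read 6.77 and 5.75 in normal urothelium, 9.88 and 9.91 in carcinoma in situ and 13.78 and 13.65 in invasive carcinoma. Its rise was divided almost evenly between the steps, 3.64 ± 0.34 in situ (12.5-fold, adjusted p = 0.00647) and 3.81 ± 0.34 from in situ to invasive (14.1-fold, adjusted p = 0.00442). On the log2 scale 48.8% of its whole change, 7.46 ± 0.34 (176-fold, adjusted p = 0.000438), was present in carcinoma in situ. That share was 21.2% for Mmp13, 23.5% for Mmp12, 19.8% for Mmp14, 3.90% for Mmp9 and 2.40% for Mmp2, and Mmp3, Mmp10 and Mmp11 had means below normal in situ. These shares are descriptions on the brightest probe set of each gene, and differences between them were not tested. Other probe sets gave Mmp14 changes of 1.61 and 0.65 in situ beside 3.46 and 1.55 in invasive carcinoma, both against normal urothelium. The other probe set gave 0.74 and 2.87 for Mmp9, and 0.39 and 5.44 for Mmp2. The in situ shares of these genes were thus larger there.

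Mmp12, the macrophage elastase, read 4.18 and 4.06 in normal urothelium, 4.96 and 5.23 in carcinoma in situ and 9.09 and 7.43 in invasive carcinoma. The invasive arrays lay 1.66 apart, the widest gap among the 9 genes, with array 1 higher. The in situ difference of Mmp12 from normal urothelium, 0.97 ± 0.52 (adjusted p = 0.334), was not called. In invasive carcinoma it rose by 4.14 ± 0.52 against normal urothelium (17.6-fold, adjusted p = 0.00525) and by 3.17 ± 0.52 against carcinoma in situ (8.98-fold, adjusted p = 0.0281). Without invasive array 1 these were 3.31 and 2.33, and without invasive array 2 they were 4.97 and 4.0.

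The gelatinases digest denatured collagen and the type IV collagen of basement membranes. Mmp2, gelatinase A, read 7.58 and 6.70 in normal urothelium, 7.38 and 7.16 in carcinoma in situ and 11.86 and 12.93 in invasive carcinoma. Normal and in situ arrays overlapped (0.13 ± 0.44, 95% interval -0.97 to 1.22), and invasive carcinoma stood 5.13 ± 0.44 above carcinoma in situ (34.9-fold, adjusted p = 0.00414). Another Mmp2 probe set rose by 5.06 ± 0.48 in the same comparison.

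Mmp9, gelatinase B, which neutrophils and macrophages also make, read 5.35 and 5.90, then 5.77 and 5.64, then 7.45 and 7.79. Normal and in situ arrays overlapped (0.08 ± 0.24, 95% interval -0.53 to 0.68), and the rise from in situ to invasive carcinoma was 1.91 ± 0.24 (3.77-fold, adjusted p = 0.0129). On the other Mmp9 probe set that rise was 2.12 ± 0.18, and the in situ difference from normal urothelium was 0.74 ± 0.18 (adjusted p = 0.0663).

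Mmp14, a membrane-anchored MMP that activates the Mmp2 zymogen at the cell surface with Timp2 as the bridge, read 8.80 and 8.86 in normal urothelium, 9.42 and 9.24 in carcinoma in situ and 11 and 11.73 in invasive carcinoma. The groups did not overlap. It was 0.50 ± 0.27 higher in situ (adjusted p = 0.330) and rose by 2.53 ± 0.27 in invasive carcinoma against normal urothelium (5.79-fold, adjusted p = 0.00294). On its other probe sets the in situ difference was larger, at 1.61 ± 0.49 (adjusted p = 0.119) and 0.65 ± 0.20 (adjusted p = 0.122), and not called. Its rise of 2.03 ± 0.27 from in situ to invasive carcinoma (adjusted p = 0.0143) was not called on its other probe sets, at 1.85 ± 0.49 (adjusted p = 0.129) and 0.90 ± 0.20 (adjusted p = 0.0861).

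**Figure D2:**
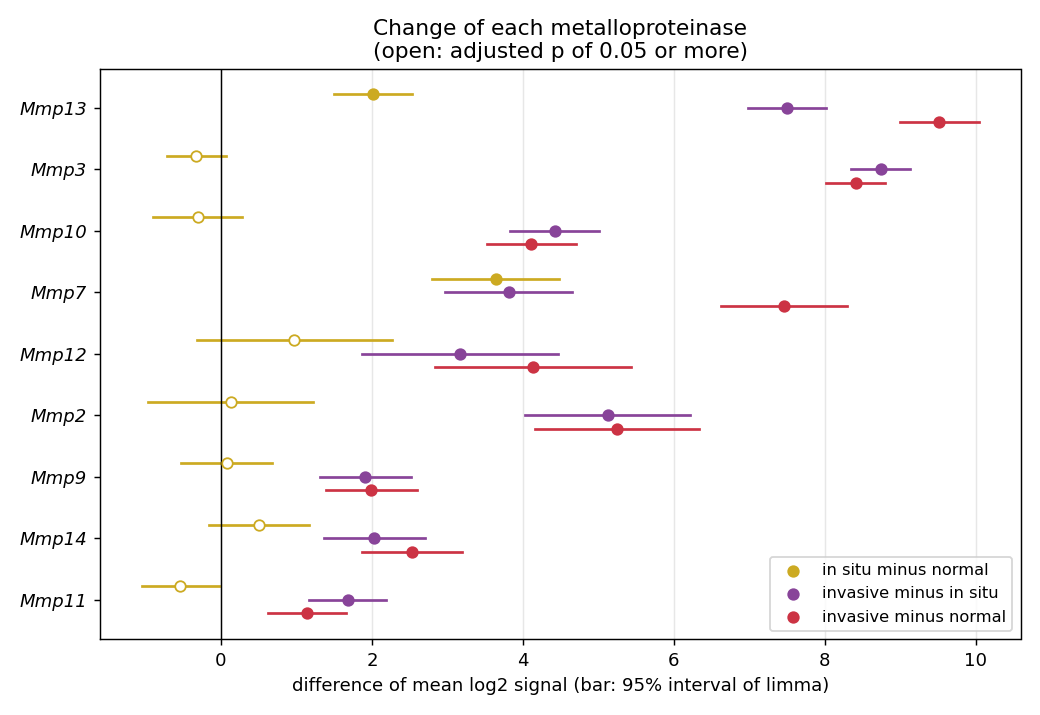
Difference of mean log2 signal for each gene in the 3 comparisons, with limma's 95% intervals and open points where the adjusted p was 0.05 or more. The in situ points of Mmp13 and Mmp7 (2.02 and 3.64) are filled and the other 7 are open, and all invasive points are filled.

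In counts, 2 of 9 genes rose and 0 fell in carcinoma in situ against normal urothelium, where 5.74% of all genes rose and 3.04% fell. In invasive carcinoma 9 of 9 rose against normal urothelium, where 12.6% of all genes rose and 7.46% fell, and 9 of 9 against carcinoma in situ, where 4.18% rose and 1.31% fell. The median change of the 9 genes was 0.13, 4.14 and 3.81 in these comparisons, beside medians over all genes of 0.01, 0.00 and -0.03. The arrays of all 9 genes were separate in both invasive comparisons, as were those of 29.7% and 26.4% of all genes in the upward direction (27.1% and 31.4% downward). In situ and normal arrays were separate upward for 4 of the 9 genes (29.3% of all genes) and downward for 3, namely Mmp3, Mmp10 and Mmp11 (25.1% of all genes). The 9 genes were chosen with earlier results of these data known, so these counts do not stand for all MMP genes. Of 9 other MMP genes measured, 1 rose in invasive carcinoma against normal urothelium and 0 rose between the lesions.

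Apart from Mmp3, Mmp10 and Mmp13 between the lesions, the calls of the 9 genes that involve carcinoma in situ needed both of its arrays. Without either of them, or with both averaged to 1 sample, limma called 0 of 9 genes in carcinoma in situ against normal urothelium, with 2 at an unadjusted p under 0.05. Under each of these settings limma also called 0 of all 18193 genes in that comparison, with 2320 to 2443 at an unadjusted p under 0.05, and the changes of Mmp7 (3.63 to 3.66) and Mmp13 (2.01 to 2.03) hardly moved. Of the 9 genes called between the lesions, Mmp3, Mmp10 and Mmp13 remained under each of these alternatives, and the other 6 had adjusted p-values from 0.0681 to 0.242. Without invasive array 2, Mmp9 (adjusted p = 0.0921) and Mmp11 (adjusted p = 0.0624) were not called between the lesions. In invasive carcinoma against normal urothelium only Mmp11 lost its call when an array was left out. This was so without either in situ array (change 1.14) and without invasive array 2 (change 0.93). With both arrays of mixed Xist and Kdm5d signal left out, all 9 genes were called in both invasive comparisons, and Mmp12 (0.91, adjusted p = 0.00304) and Mmp14 (0.53, adjusted p = 0.0331) joined Mmp7 and Mmp13 in situ. That setting called 6352 of all 18193 genes in situ, 8165 in invasive carcinoma against normal urothelium and 5897 between the lesions, so the 4 of 9 in situ lay near the share of all genes.

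Of the 9 genes 5 lie on mouse chromosome 9, where 10 MMP genes follow each other in the order Mmp13, Mmp12, Mmp1b, Mmp3, Mmp1a, Mmp10, Mmp8, Mmp27, Mmp20 and Mmp7. The 5 that rose in invasive carcinoma were interleaved with genes that were not called. Mmp1b (-0.09 ± 0.18), Mmp1a (-0.28 ± 0.17), Mmp8, the neutrophil collagenase (0.34 ± 0.21), and Mmp20, the enamel MMP (0.55 ± 0.26), were not called, so limma called 0 of the 4 other measured genes of the cluster (0 at an unadjusted p under 0.05). Mmp1a and Mmp1b are close paralogs whose probe sets may share signal, and they read 2.76 to 3.21 in all arrays, under the lower quartile and near the lowest signal of an array (2.20 to 2.30), so a change in them may go undetected, and Mmp27 was not measured here.

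**Figure D3:**
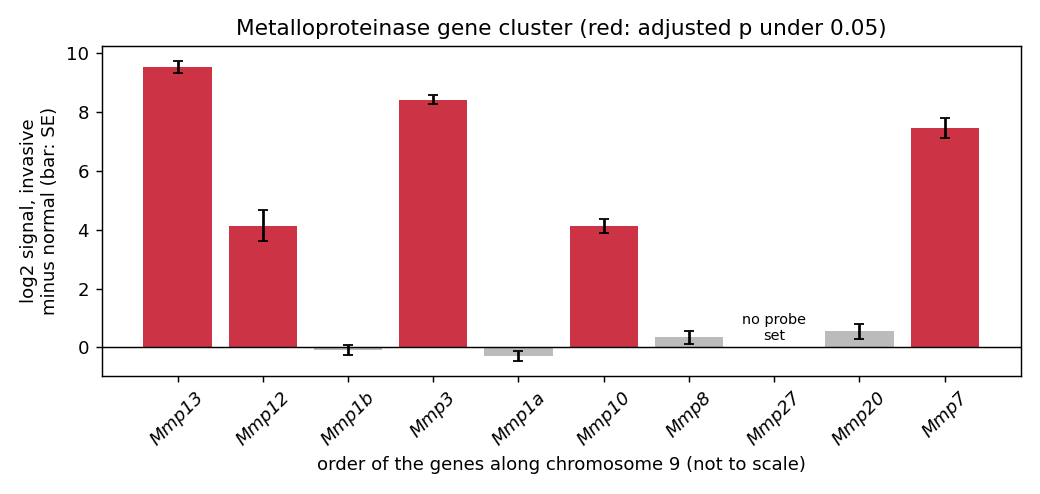
Difference of mean log2 signal between invasive carcinoma and normal urothelium for the genes of the chromosome 9 cluster in their order along the chromosome, with standard errors. The tall bars of Mmp13, Mmp12, Mmp3, Mmp10 and Mmp7, from 4.11 to 9.52, stand among bars between -0.28 and 0.55.

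Several MMP genes are textbook targets of AP-1, the Jun and Fos family of transcription factors, whose core site reads TGANTCA, a motif that is its own reverse complement and so is found on both strands in 1 search. RefSeq promoter windows of 300 bases (GRCm38.p6), from 250 before to 50 after a gene's start, were found for 7 of the 9 genes. The motif lay in a window of 5 of these genes, all in the chromosome 9 cluster, while 8.97% of 27025 genes in the table had it in any window (7.81% of 32851 windows). The last 100 bases before the start are shown for these genes, and for Mmp11 and Mmp14 as examples without the motif, in lower case with the motif in capitals.
Mmp13, chr9:7272414-7272513, plus strand: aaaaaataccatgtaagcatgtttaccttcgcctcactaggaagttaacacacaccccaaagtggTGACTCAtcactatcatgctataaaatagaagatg
Mmp3, chr9:7445722-7445821, plus strand: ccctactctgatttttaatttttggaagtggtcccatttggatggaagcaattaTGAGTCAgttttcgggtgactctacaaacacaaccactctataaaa
Mmp10, chr9:7502242-7502341, plus strand: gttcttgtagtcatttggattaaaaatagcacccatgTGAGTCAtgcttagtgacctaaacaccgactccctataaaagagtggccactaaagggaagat
Mmp7, the upstream of 2 starts, chr9:7691990-7692089, plus strand: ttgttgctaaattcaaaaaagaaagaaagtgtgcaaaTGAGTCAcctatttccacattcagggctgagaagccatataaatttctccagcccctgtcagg
Mmp12, the downstream of 2 starts, chr9:7347274-7347373, plus strand: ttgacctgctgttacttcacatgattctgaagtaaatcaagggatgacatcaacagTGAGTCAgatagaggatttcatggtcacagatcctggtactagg
Mmp11, chr10:75932503-75932602, minus strand: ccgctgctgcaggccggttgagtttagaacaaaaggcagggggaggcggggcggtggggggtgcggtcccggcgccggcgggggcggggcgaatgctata
Mmp14, chr14:54431498-54431597, plus strand: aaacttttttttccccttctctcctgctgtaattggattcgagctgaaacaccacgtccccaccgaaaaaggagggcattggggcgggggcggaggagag

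The motif began 35 bases before the start in Mmp13, 46 in Mmp3, 63 in Mmp10, 63 in Mmp7 and 44 in Mmp12. The other windows of Mmp7 and Mmp12 held none. Within the last 100 bases before the start it was present in 2.73% of all windows. A match describes letters only, and binding was not measured. Promoter windows of Mmp1b, Mmp1a, Mmp8, Mmp27 and Mmp20, the other cluster genes, were not examined singly. Whether the motif sets apart the genes that rose was therefore not tested.

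The list of inducers held 17 genes, for AP-1 and Ets factors, for cytokines that can induce MMPs and for Bsg, a membrane protein. Of these, 7 rose in carcinoma in situ and 0 fell, and 8 rose in invasive carcinoma against normal urothelium. Jun, a core AP-1 subunit, read 6.45 and 6.69 in normal urothelium, 11.06 and 11.37 in situ and 10.67 and 10 in invasive carcinoma. Its level was thus high in both lesions, and it rose by 4.65 ± 0.27 in situ (adjusted p = 0.00356). Fosl1, a Fos-related AP-1 subunit, rose by 1.38 ± 0.20 in situ (adjusted p = 0.0171) and by 2.27 ± 0.20 in invasive carcinoma (adjusted p = 0.00181), both against normal urothelium. Etv5 (2.33 ± 0.36) and Etv4 (1.91 ± 0.33), Ets factors of the PEA3 group, and Il1b (2.20 ± 0.23), a cytokine that induces MMPs, also rose in situ. Fos itself was not called against normal urothelium, at -0.07 ± 0.33 in situ and -0.76 ± 0.33 in invasive carcinoma. Between the lesions limma called 0 of the 17, with 5 at an unadjusted p under 0.05 (Etv5 at -1.65 ± 0.36, adjusted p = 0.0669, had the largest difference).

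Of the inhibitor genes Timp1 to Timp4 and Reck, a membrane-anchored MMP inhibitor, 3 rose between the lesions and 0 fell. Timp1 read 6.81 and 6.45 in normal urothelium, 6.47 and 6.16 in situ and 11.01 and 11.93 in invasive carcinoma, a rise of 5.15 ± 0.34 from in situ (35.6-fold, adjusted p = 0.00196). Timp2 read 10.59 and 10.51, then 9.22 and 9.46, then 12.39 and 12.35. It fell by 1.21 on the log2 scale in situ (SE 0.17, adjusted p = 0.0149) and rose by 3.03 ± 0.17 from there to invasive carcinoma (adjusted p = 0.00138), so its in situ level was the lowest of the 3 groups. Timp3, which binds to the matrix, rose by 4.02 ± 0.57 between the lesions (adjusted p = 0.0175), and Timp4 (0.16 ± 0.18) and Reck (1.52 ± 0.45, adjusted p = 0.142) were not called.

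Of 14 other MMP genes 9 were measured, and in invasive carcinoma against normal urothelium 1 rose and 0 fell. Of all genes 12.6% rose there, a share near 1 of 9. The riser was Mmp19, which read 3.05 and 3.62 in normal urothelium, 3.27 and 3.56 in situ and 5.04 and 6.39 in invasive carcinoma (2.38 ± 0.47, adjusted p = 0.0204). In limma 0 of the 9 were called between the lesions, with 3 at an unadjusted p under 0.05, and 0 in situ against normal urothelium, with 0 at that level. Of the genes that activate zymogens, mostly through plasmin, 6 of 8 were measured. Plaur, the urokinase receptor, rose in invasive carcinoma against normal urothelium (1.38 ± 0.26, adjusted p = 0.0170), while the urokinase gene Plau (0.10 ± 0.46) and Furin, a convertase that activates Mmp11 and Mmp14 (-0.19 ± 0.21), were not called.

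Genes for matrix proteins that MMPs cut also rose in the invasive arrays. Of 9 measured, 5 rose between the lesions and 0 fell, with Col1a1 (5.31 ± 0.36, adjusted p = 0.00206), Col1a2 (4.89 ± 0.43, adjusted p = 0.00444) and Col3a1 (4.55 ± 0.29, adjusted p = 0.00196), chains of fibrillar collagens, in front. The type IV chains Col4a1 (3.20 ± 0.61, adjusted p = 0.0353) and Col4a2 (2.61 ± 0.34, adjusted p = 0.0137) of basement membranes rose in situ, while Mmp2 and Mmp9, the gelatinases, did not pass there.

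**Figure D4:**
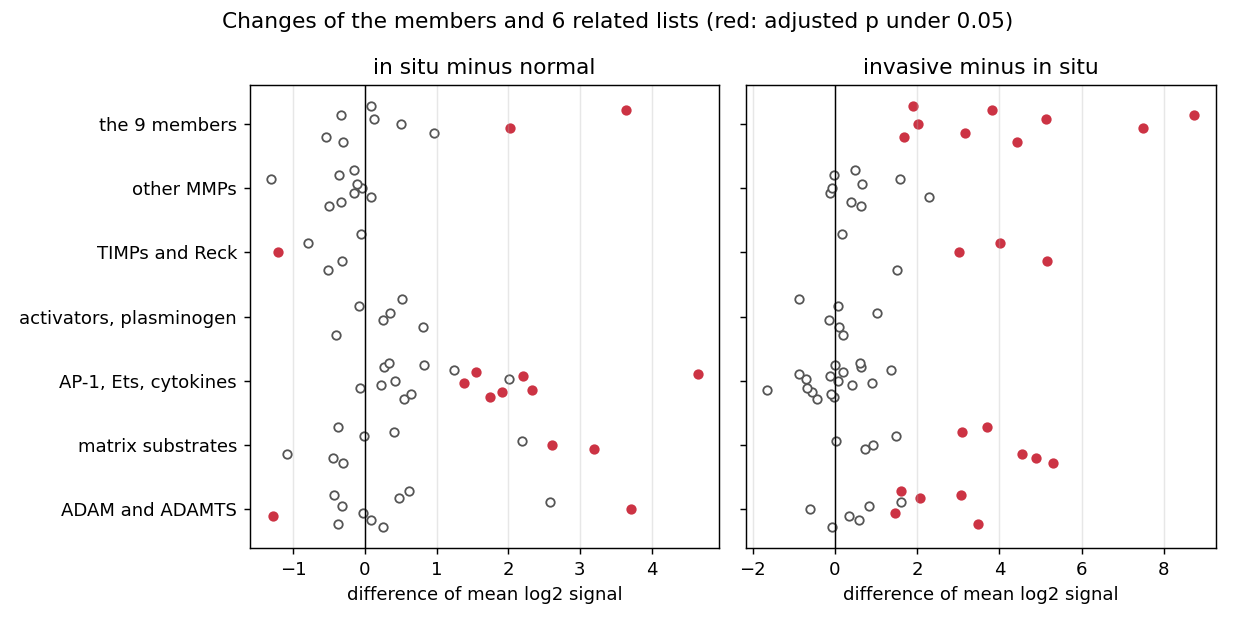
Difference of mean log2 signal of the 9 genes and of 6 related lists, in situ minus normal on the left and invasive minus in situ on the right, with 1 point per gene and red points past the threshold. On the left the AP-1, Ets and cytokine list holds the most red points (7 of 17), and on the right they lie among the 9 members, the inhibitors (3 of 5), the substrates (5 of 9) and the ADAM and ADAMTS genes (5 of 11).

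Both invasive arrays were high for all 9 genes but not to the same degree, and markers of other cell types differed between them too. Mmp2 was 1.07 higher in array 2 and Mmp14 0.73 higher, while Mmp12 was 1.66, Mmp10 0.60 and Mmp13 0.48 higher in array 1. All 7 fibroblast markers were higher in array 2, by a median of 1.26, as were 7 of 8 macrophage markers, by a median of 0.92, and 6 of 6 smooth muscle markers, by 1.07. Of the 8 urothelial markers 5 were higher in array 1. Mmp12, known as a macrophage product, was thus higher in the array with the lower macrophage marker level, and Mmp2 was higher in the array with the higher fibroblast level. With 2 arrays this is a description, and the part of other cell types in the rise of the MMP genes was not tested. Fewer cells of a type and less RNA per cell cannot be told apart in these samples.

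**Figure D5:**
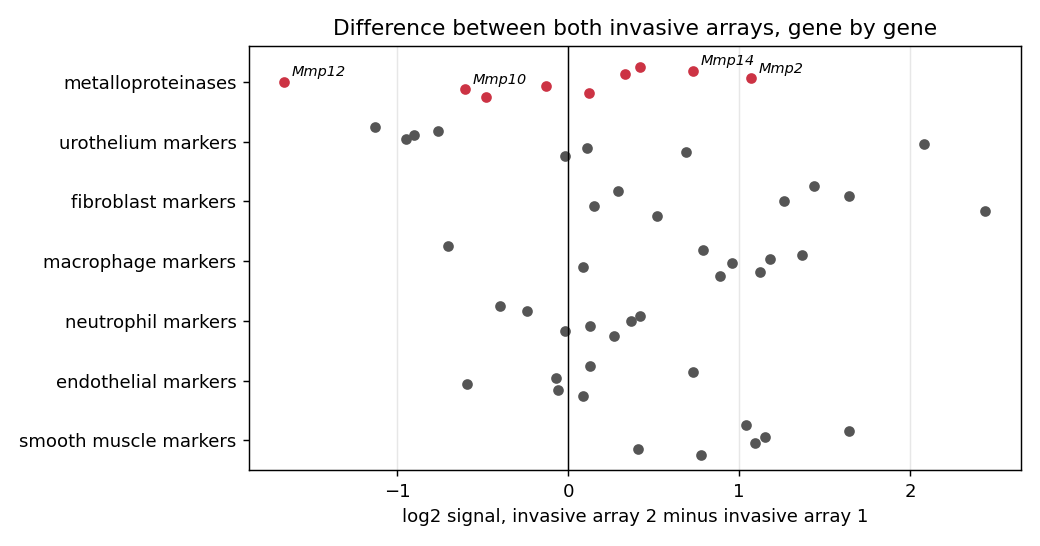
Log2 signal of invasive array 2 minus invasive array 1, with 1 point per gene, for the 9 MMP genes and for markers of 6 cell types. Mmp12 lies at -1.66 and Mmp2 at 1.07, and all points of the fibroblast and smooth muscle markers lie to the right of 0.

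Markers of urothelium and of other cell types changed in the same comparisons as the MMP genes. Against normal urothelium 5.74% of all genes rose and 3.04% fell in situ, and 12.6% rose and 7.46% fell in invasive carcinoma. Between the lesions 4.18% rose and 1.31% fell. Of the 8 urothelial markers 3 fell in situ and 4 in invasive carcinoma, both against normal urothelium, and between the lesions 3 fell and 1, Krt20, rose (3.15 ± 0.53, adjusted p = 0.0296). The uroplakin genes Upk3a and Upk2 fell by 5.99 and 4.05 on the log2 scale in invasive carcinoma against normal urothelium (SE 0.65 and 0.30, adjusted p = 0.00313 and 0.00108). Of the 6 smooth muscle markers 1 rose in invasive carcinoma against normal urothelium and 2 rose between the lesions, Tagln (4.67 ± 0.66, adjusted p = 0.0175) and Acta2 (3.84 ± 0.38, adjusted p = 0.00598), both also made by activated fibroblasts. In situ limma called 0 of the 6, with 5 at an unadjusted p under 0.05. All 6 had lower means in situ than in normal urothelium, with changes from -2.88 to -0.51. Against normal urothelium 4 of 7 fibroblast markers rose in invasive carcinoma, as did 7 of 8 macrophage markers, 6 of 6 endothelial markers and 1 of 7 neutrophil markers. The 1 of 7 neutrophil markers and 1 of 6 smooth muscle markers lay near the share of all genes that rose there. Between the lesions 4 of 7 fibroblast markers rose, among them Pdgfra (3.71 ± 0.62, adjusted p = 0.0292) and Postn (3.61 ± 0.25, adjusted p = 0.00236), with 1 of 8 macrophage markers, Mrc1 (3.16 ± 0.48, adjusted p = 0.0210). In carcinoma in situ, where Mmp7 and Mmp13 had risen, 1 of 7 fibroblast markers, Pdgfrb, rose (2.08 ± 0.44, adjusted p = 0.0443). Another 1, Dcn, fell by 4.99 on the log2 scale (SE 0.32, adjusted p = 0.00395). Of 8 macrophage markers 0 were called in limma (3 at an unadjusted p under 0.05), with a median change of 1.09. Of the endothelial markers 4 of 6 rose. The neutrophil genes S100a8 and S100a9 differed between the normal arrays, with S100a8 at 8.76 in array 1 and 4.66 in array 2, and S100a9 at 9.13 and 4.48.

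For each gene the 2 genes outside the 9 members with the nearest pattern were found by the Euclidean distance, in log2 units, between values centred on their own mean over the 6 arrays. Nearest to Mmp2 were Timp1 (0.63) and Ccn1 (0.64), a matricellular protein gene. Nearest to Mmp13 were Reg3b (1.23), which encodes a secreted C-type lectin, and Cp (2.68), which encodes ceruloplasmin, and nearest to Mmp3 were Reg3b (1.34) and the transcription factor gene Onecut2 (2.27). Reg3b itself read 4.07 and 3.88 in normal urothelium, 4.86 and 4.84 in situ and 12.77 and 12.40 in invasive carcinoma. The stepwise pattern of Mmp7 was nearest to Mcpt2 (1.42), a mast cell protease gene, and Ptgs2 (1.49), the inducible cyclooxygenase. Ptgs2 read 5.07 and 3.62, then 8.10 and 7.80, then 10.85 and 10.28. Mmp10 was nearest to Mme (0.52), a membrane metallo-endopeptidase, and Dynap (0.56), and Mmp12 to AA467197 (0.60) and Ceacam10 (0.78). For the smaller rises the nearest genes were Samhd1 (0.21) and BC023105 (0.24) for Mmp9, Klf9 (0.17) and Alox5ap (0.21) for Mmp11, and Csgalnact1 (0.20) and Lix1l (0.24) for Mmp14. Small distances are easier to reach for small changes, so they order neighbours within a gene and not between genes. Among the 9 genes the smallest distances were between Mmp9 and Mmp14 (0.73) and between Mmp9 and Mmp11 (0.91). The largest was between Mmp11 and Mmp13 (8.61). These distances depend on the size of the rises too, so they do not rank how alike the patterns were.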

How the data were processed

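Bladder cells of 6 samples were laser-captured, and 100 ng of RNA per sample was amplified for Affymetrix 3' arrays, per the labels' protocols. The deposited values are log2 signals that the authors made with Partek and RMA, per the submitters' processing notes, with no version given. RMA corrects background, forces all arrays to a common distribution and compresses small signals, so differences in total RNA are removed and folds of dim genes are understated. The authors' table of fold changes was not used. Which build the array design used was given neither by the labels nor by those notes.

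Names of probe sets came from the array's annotation and were updated by Entrez identifier to RefSeq (GRCm38.p6) symbols: 34945 of 45101 had 1 symbol and were no control, 932 had several and 9211 had none, and 34741 identifiers matched. Each of 18193 genes was read from its probe set with the highest mean. Group labels were read from titles. One linear model took the 6 arrays together and fitted 3 means (limma 3.58.1 with eBayes in R 4.3.3, no filter on signal, residual degrees of freedom 3 and prior 2.69), two-sided, with Benjamini-Hochberg adjustment over all genes. The number of arrays limits the precision. The procedure was tested on simulated data. The genes altered in the mice were not analysed here.

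The members, the related lists and the marker lists were chosen with earlier results of these data known. Named genes are all members, up to 4 called members of each list with the largest change and partners of a described member, and the 2 nearest patterns of each called member. S100a8, S100a9, Cdh1, Epcam, Xist, Kdm5d, Adam10, Fos and Bsg were named outside this rule, after their values were seen. Of the 16 alternatives of each comparison, 6 left out an array. The others averaged the in situ arrays, left out both mixed arrays, fitted only the groups compared, fitted all named probe sets, took the median of a gene's probe sets, left out dim genes, let the prior variance follow intensity, centred arrays on their medians, repeated quantile normalization or added the replicate number as a block.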

Additional observations from a re-analysis of the deposited data

How the results depend on the processing

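Across 432 member results under the 16 alternatives of each comparison, 394 kept their direction and their side of the threshold, 32 lost a call, 2 gained 1 and 4 changed sign. The sign changes were among uncalled in situ differences, given here with the range over arrays left out: Mmp2 at 0.57 without normal array 1, -0.32 without normal array 2 and -0.32 with both arrays of mixed Xist and Y-linked signal left out, and Mmp9 at 0.35 without normal array 2, -0.20 without normal array 1 and -0.04 with arrays centred on their medians. For carcinoma in situ against normal urothelium the called members numbered 0 to 2 with an array left out, 0 with the in situ arrays averaged to 1 sample and 4 without both mixed arrays, and all genes called numbered 0 to 4196, 0 and 6352 (1597 in the reported fit). For invasive carcinoma against normal urothelium 8 to 9 members were called with an array left out, and all genes called numbered 1637 to 5699, 1832 with the in situ arrays averaged and 8165 without both mixed arrays (3652 in the reported fit). Between the lesions 3 to 9 members were called with an array left out and 3 with the in situ arrays averaged, and all genes called numbered 50 to 2493, 55 with that average and 5897 without both mixed arrays (999 in the reported fit). With only the groups compared in the fit, all genes called were 947, 1832 and 2493 in the same order of comparisons. With all named probe sets fitted they were 2653 and 6368 for both comparisons against normal urothelium, over 34945 probe sets. Where an array is left out, the lone array of a group is assumed to vary like the others. Without both mixed arrays the spread comes from the in situ pair alone, the closest of the 3 pairs. Without either in situ array, 0 genes were called in situ by limma, with 2347 and 2443 at an unadjusted p under 0.05.

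Differences between array 2 and array 1 correlated over genes at -0.39 between normal urothelium and carcinoma in situ, 0.37 between normal urothelium and invasive carcinoma and -0.34 between the lesions. No label says that the numbers pair samples, which were taken to share only a number. With the replicate number as a block (replicate block), 1146, 3315 and 887 of all genes were called, and 2, 9 and 9 members were called in these comparisons, the same number as in the reported fit. With the median of a gene's probe sets Mmp14 lost its call between the lesions (1.85, adjusted p = 0.103). Other probe sets of Mmp2, Mmp9 and Mmp14 were read after seeing the data, and changed the call of Mmp14 between the lesions alone. Signals near the bottom of the scale limit the folds of Mmp13, Mmp3 and Mmp12.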

Other observations

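The related ADAM and ADAMTS proteinases, which shed membrane proteins or cut proteoglycans and collagen propeptides, were divided in the same samples. Of 11 measured, 7 rose in invasive carcinoma against normal urothelium and 0 fell. Adamts1 rose by 4.19 ± 0.58 (adjusted p = 0.00686), Adam12 by 3.10 ± 0.17 (adjusted p = 0.000619), Adamts5 by 2.62 ± 0.33 (adjusted p = 0.00529) and Adam8 by 3.12 ± 0.56 (adjusted p = 0.0154). Adam8, a proteinase of leukocytes and tumour cells, had already risen in carcinoma in situ, by 3.72 ± 0.56 (adjusted p = 0.0184), where its arrays read 10.59 and 10.66 against 7.69 and 6.12 in normal urothelium. Adam12 read 5.62 and 5.69 in normal urothelium, 5.29 and 5.27 in situ and 8.62 and 8.89 in invasive carcinoma, so its rise lay between the lesions (3.48 ± 0.17, adjusted p = 0.00114). Adam17, the sheddase of TNF and of EGF receptor ligands, fell in situ by 1.29 on the log2 scale (SE 0.28, adjusted p = 0.0478). Adam10, which read 11.76 to 12.31 over all arrays, was not called.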
